A study of Mus musculus with 21 samples.

Results

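The MHC class II genes are 10 genes taken by symbol from the 45777 genes of the deposited tables: H2-Aa, H2-Ab1, H2-Eb1, H2-DMa, H2-DMb1, H2-DMb2, H2-Oa, H2-Ob, Cd74 and Ciita. All 10 were found in both tables, had reads in all 21 libraries and passed the filter on low counts in each fit. They were measured by RNA sequencing of whole thyroid glands of C57BL/6J mice, in 7 groups of 3 libraries. At 1 week the groups were TSH-MMI, TSH and Empty. At 4 weeks they were TSH-MMI, TSH, Empty-MMI and Empty, so MMI without TSH was not measured at 1 week. TSH mice were injected with the pLIVE-TSHB and pLIVE-CGA vectors, which encode the beta and alpha subunits of thyroid-stimulating hormone. TSH-MMI mice carried the same vectors and were treated with thiamazole (MMI), a drug that blocks thyroid hormone synthesis. Empty-MMI mice received the pLIVE-Empty vector and thiamazole, and Empty mice the pLIVE-Empty vector alone. Every group was therefore vector-injected. The pLIVE backbone is made for expression from the liver, so the hormone reaches the thyroid through the blood. The labels read here state neither sex nor age, nor whether libraries of a group came from separate mice, so p-values measure only the spread between these libraries.

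MHC class II molecules show peptides from endocytosed proteins to CD4 T cells, and are made mainly by dendritic cells, macrophages and B cells. H2-Aa and H2-Ab1 encode the alpha and beta chains of I-A, and H2-Eb1 the beta chain of I-E. Cd74, the invariant chain, occupies the groove of new class II molecules and guides them to endosomes, where H2-DM (H2-DMa with H2-DMb1 or H2-DMb2) exchanges its remnant for peptide and H2-DO (H2-Oa with H2-Ob) restrains H2-DM. Ciita is the co-activator that switches these genes on through a shared promoter module, and interferon gamma induces Ciita in cells that otherwise lack class II. Human thyroid follicular cells are known to show class II in autoimmune thyroid disease.

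Of the 10 genes, 8 lie on chromosome 17 within positions 34092340 to 34316674 of GRCm38 (GENCODE M21). RefSeq promoters of build GRCm38.p6, each 250 bases before to 50 after a start, were at hand for 7 of the 10 genes: H2-Aa, H2-Eb1, H2-DMa, H2-DMb1, H2-DMb2, H2-Oa and H2-Ob. The module bound with Ciita is known to hold an X box followed at a fixed distance by a Y box. As a marker of that layout, the letters AAC followed after 23 to 26 bases by TGATTGG were searched on both strands, with the spacing chosen after these promoters had been read. In 6 of the 7 genes this pair was present on the gene's own strand, against 0.46% of all 32851 promoters on either strand. TGATTGG alone was in 7.82% of all promoters. H2-DMa held neither in its 2 annotated windows, which says only that these letters are not there. The stretches below are shown for the layout that these 6 members share, with the spacing fitted to them. Capitals mark AAC and TGATTGG, and each stretch reads 5′ to 3′ on its gene's strand.
H2-Aa, chr17:34287864-34287910, minus strand: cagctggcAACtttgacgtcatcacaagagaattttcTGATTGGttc
H2-Eb1, chr17:34305770-34305815, plus strand: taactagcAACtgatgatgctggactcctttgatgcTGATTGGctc
H2-DMb1, chr17:34153091-34153137, plus strand: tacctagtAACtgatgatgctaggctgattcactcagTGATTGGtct
H2-DMb2, chr17:34145120-34145166, plus strand: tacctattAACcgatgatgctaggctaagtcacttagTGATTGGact
H2-Oa, chr17:34092297-34092343, plus strand: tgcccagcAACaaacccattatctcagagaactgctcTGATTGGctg
H2-Ob, chr17:34238812-34238855, plus strand: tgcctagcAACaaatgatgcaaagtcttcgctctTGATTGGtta

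Libraries held 32244842 to 51886245 counts. Summed follicular cell markers ran from 166376 to 323821 normalised CPM (counts scaled to library size, with TMM factors within each week), so the tissue label held. At 1 week 2 libraries stood apart before any class II gene was considered. Empty replicate 3 held 238 CPM of immature thymocyte markers, against 4.48 and 4.30 in Empty replicates 1 and 2. It also held 248 CPM of thymic epithelium markers, against 56.0 and 58.8, and 141 CPM of T cell markers, against 6.85 and 6.64. TSH-MMI replicate 2 held 31.5 CPM of the immature thymocyte markers, against 5.17 to 6.00 in the other 2 libraries of its group. The thymus is rich in class II, so 1 week tests of the class II genes are given with all libraries. Where a call moves, the result without 1 or 2 of these libraries is given too. Tests of the other gene lists at 1 week are given with all libraries only, so whether they move was not tested. Of the 8 thymocyte markers, Rag1, Rag2, Ptcra and Themis were at 0 in all TSH libraries of 1 week and all Empty libraries of 4 weeks.

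By length-scaled level (FPKM), Cd74 came first in all 21 libraries, between 449 and 876 with a median of 700. H2-Aa came next in all 21 (136 to 260), then H2-Ab1 (113 to 236) and H2-Eb1 (67.9 to 146). H2-DMb1 followed at 16.4 to 31.6 and H2-DMb2 at 1.73 to 6.57. The last 3 were H2-Oa (0.681 to 3.43), Ciita (0.519 to 1.61) and H2-Ob (0.205 to 0.726), which changed places between libraries and overlapped in range. H2-DMa lay between 2.23 and 12.03 FPKM but is left out of this order. Its deposited FPKM per CPM varied 4.16-fold between libraries, against 1.25-fold to 1.26-fold for 8 of the other genes and 1.77-fold for Ciita. Empty replicate 3 of 1 week had 757 H2-DMa counts with 2.49 FPKM, whereas replicate 1 had 609 counts with 6.86 FPKM. Folds below therefore rest on counts.

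**Figure D1:**
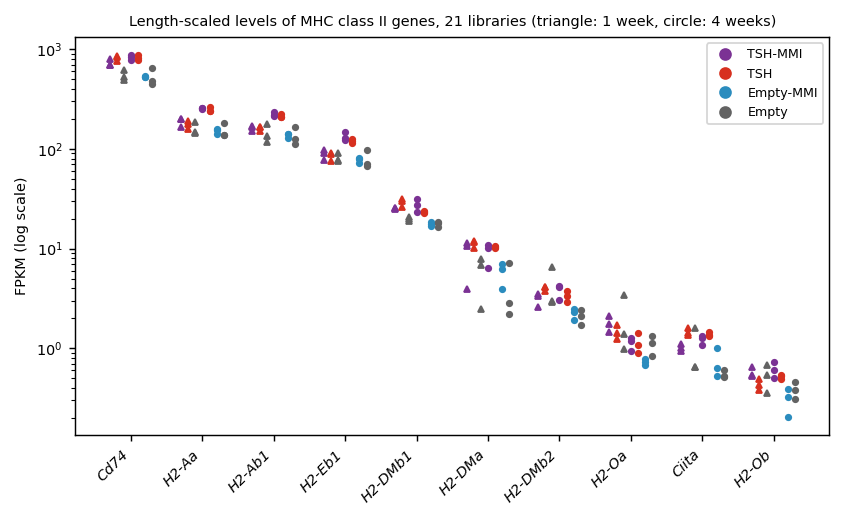
Deposited FPKM (log scale) of the 10 MHC class II genes, 1 point per library, coloured by treatment and shaped by week, with TSH-MMI left of TSH and Empty last within a week. Cd74 lies highest at 449 to 876 FPKM and H2-Ob lowest by median, and the H2-DMa points fall apart into high and low values that its counts do not show.

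After 4 weeks of TSH, 8 of the 10 genes rose (edgeR quasi-likelihood test, Benjamini-Hochberg adjusted p below 0.05), while 8.52% of all 17355 genes tested rose. The 2 I-A chain genes, the I-E beta chain gene H2-Eb1, the invariant chain, all 3 H2-DM genes and Ciita were higher by 0.51 to 0.98 on the log2 scale. Neither H2-DO gene, H2-Oa or H2-Ob, passed the test. The median over the 10 was 0.74, against -0.03 over all genes. In 9 of the 10 genes every TSH library lay above every Empty library, which held for 17.9% of all genes. With TSH-MMI against Empty 8 of 10 rose, again all but H2-Oa and H2-Ob, where 8.77% of all genes did. The median was 0.63, and 9 of the 10 genes again did not overlap, against 15.7% of all genes. These 2 comparisons share their Empty libraries. In whole tissue, fewer cells of a type and less RNA per cell cannot be told apart, and neither can more of either.

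**Figure D2:**
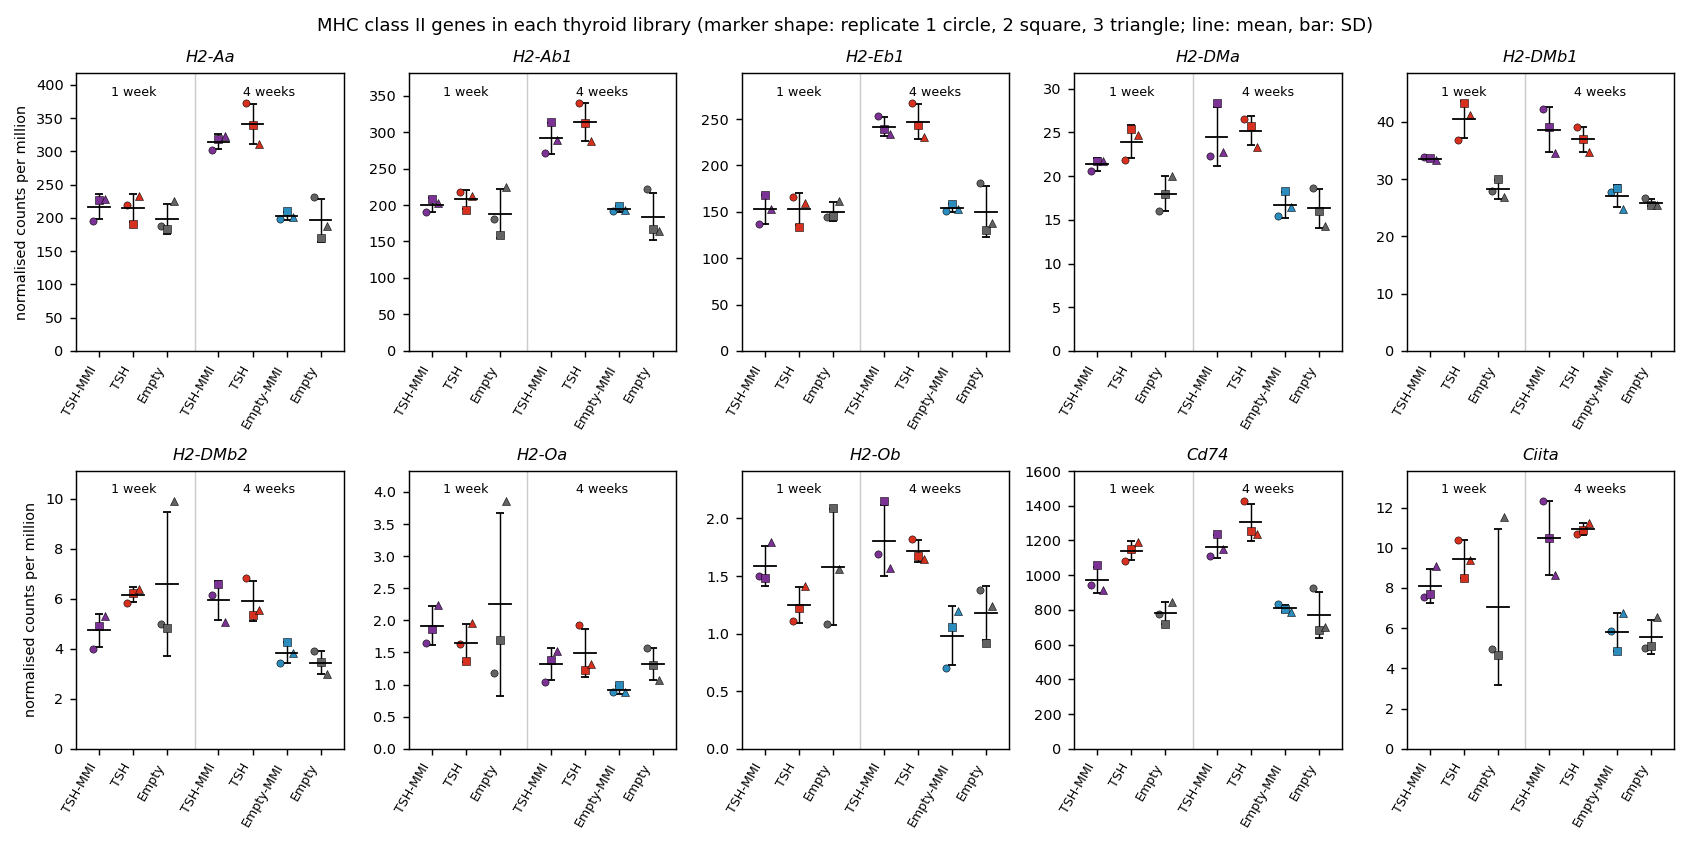
Normalised CPM of each gene in every library, with the group mean as a line and the SD as a bar (n = 3 libraries per group). At 4 weeks the TSH-MMI and TSH libraries lie above the Empty-MMI and Empty libraries in every panel except that of H2-Oa, and at 1 week Empty replicate 3 (triangle) lies high for H2-DMb2, H2-Oa and Ciita.

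The 3 I-A and I-E chains rose at 4 weeks, and with all libraries in the fit none of them passed the test at 1 week. H2-Aa at 4 weeks had 303, 319 and 323 CPM in TSH-MMI thyroids, 373, 340 and 312 CPM in TSH thyroids, 198, 210 and 201 CPM in Empty-MMI thyroids, and 232, 170 and 187 CPM in Empty thyroids. Both TSH-carrying groups lay wholly above both groups without TSH. The H2-Aa log2 fold change was 0.80 ± 0.11 (SE, n = 3 against 3) for TSH over Empty, with an edgeR adjusted p of 0.000516. It was 0.68 ± 0.11 for TSH-MMI over Empty (edgeR adjusted p 0.00122). At 1 week H2-Aa had 195, 228 and 228 CPM in TSH-MMI, 219, 191 and 233 CPM in TSH, and 188, 183 and 225 CPM in Empty thyroids. Those 3 groups overlapped, and the TSH over Empty log2 fold change was 0.11 ± 0.10 (edgeR adjusted p 0.457).

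H2-Ab1 at 4 weeks had 271, 313 and 290 CPM in TSH-MMI, 340, 313 and 287 CPM in TSH, 192, 199 and 193 CPM in Empty-MMI, and 221, 167 and 164 CPM in Empty thyroids. H2-Eb1, the I-E beta chain, had 253, 239 and 234 CPM in TSH-MMI, 267, 244 and 231 CPM in TSH, 151, 159 and 153 CPM in Empty-MMI, and 181, 130 and 138 CPM in Empty thyroids. Empty replicate 1 was the highest of the 6 libraries without TSH for both genes and still lay below every library with it. H2-Ab1 was higher in TSH than in Empty by 0.77 ± 0.12 on the log2 scale (edgeR adjusted p 0.000907), and H2-Eb1 by 0.72 ± 0.11 (edgeR adjusted p 0.00116). In TSH-MMI over Empty the values were 0.66 ± 0.12 for H2-Ab1 and 0.69 ± 0.11 for H2-Eb1. At 1 week H2-Ab1 had 190, 208 and 202 CPM in TSH-MMI, 218, 194 and 212 CPM in TSH, and 181, 159 and 224 CPM in Empty thyroids. H2-Eb1 had 137, 168 and 153 CPM in TSH-MMI, 166, 133 and 159 CPM in TSH, and 144, 145 and 162 CPM in Empty thyroids. Neither passed the test at 1 week, with TSH over Empty log2 values of 0.14 ± 0.11 and 0.02 ± 0.10 (edgeR adjusted p 0.367 and 0.889). Empty replicate 3 gave the highest H2-Ab1 value of that week. Without it the H2-Ab1 log2 fold change was 0.28 ± 0.08 and passed the test (edgeR adjusted p 0.0285), whereas H2-Eb1 stayed at 0.07 ± 0.11 (adjusted p 0.666).

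Cd74, the invariant chain (GRCm38 chromosome 18, 60803848 to 60812652), was higher at both times. At 1 week it had 944, 1059 and 912 CPM in TSH-MMI, 1080, 1153 and 1191 CPM in TSH, and 776, 718 and 845 CPM in Empty thyroids, so neither group overlapped Empty. The log2 fold change was 0.55 ± 0.08 for TSH over Empty (edgeR adjusted p 0.000629) and 0.32 ± 0.08 for TSH-MMI over Empty (edgeR adjusted p 0.0168). At 4 weeks Cd74 had 1111, 1237 and 1148 CPM in TSH-MMI, 1429, 1255 and 1234 CPM in TSH, 833, 803 and 789 CPM in Empty-MMI, and 924, 686 and 702 CPM in Empty thyroids. The 4 week log2 values were 0.76 ± 0.12 for TSH over Empty and 0.60 ± 0.12 for TSH-MMI over Empty (edgeR adjusted p 0.000945 and 0.00376).

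Of the H2-DM genes, H2-DMa and H2-DMb1 rose at 1 week and H2-DMb2 did not pass the test. H2-DMb1 had 33.9, 33.6 and 33.3 CPM in TSH-MMI, 36.9, 43.3 and 41.2 CPM in TSH, and 27.9, 30.0 and 26.8 CPM in Empty thyroids, with no overlap with Empty. It rose by 0.52 ± 0.08 on the log2 scale in TSH (edgeR adjusted p 0.000601) and by 0.25 ± 0.08 in TSH-MMI (edgeR adjusted p 0.0365). H2-DMa had 20.5, 21.8 and 21.7 CPM in TSH-MMI, 21.8, 25.3 and 24.7 CPM in TSH, and 16.0, 17.9 and 20.0 CPM in Empty thyroids. It rose in TSH (0.41 ± 0.10, edgeR adjusted p 0.00902), and its TSH-MMI value of 0.25 ± 0.10 did not pass (adjusted p 0.0910). H2-DMb2, the close paralog of H2-DMb1 with which reads may be shared, had 4.01, 4.93 and 5.30 CPM in TSH-MMI, 5.83, 6.24 and 6.40 CPM in TSH, and 4.98, 4.85 and 9.92 CPM in Empty thyroids. Empty replicate 3 alone was high, and the TSH over Empty value was -0.10 ± 0.25 (edgeR adjusted p 0.814), against 0.32 ± 0.16 (adjusted p 0.173) without it. H2-DMb2 counts were 37.0 per 100 H2-DMb1 counts in that library, against 17.8 and 16.1 in the other Empty libraries of 1 week.

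At 4 weeks all 3 H2-DM genes rose. H2-DMa had 22.3, 28.4 and 22.8 CPM in TSH-MMI, 26.6, 25.8 and 23.3 CPM in TSH, 15.4, 18.3 and 16.4 CPM in Empty-MMI, and 18.7, 16.0 and 14.3 CPM in Empty thyroids. H2-DMb1 had 42.2, 39.2 and 34.5 CPM in TSH-MMI, 39.1, 36.9 and 34.7 CPM in TSH, 27.8, 28.4 and 24.8 CPM in Empty-MMI, and 26.6, 25.5 and 25.5 CPM in Empty thyroids. H2-DMb2 had 6.15, 6.60 and 5.07 CPM in TSH-MMI, 6.82, 5.35 and 5.56 CPM in TSH, 3.44, 4.26 and 3.83 CPM in Empty-MMI, and 3.90, 3.46 and 2.98 CPM in Empty thyroids. For each of the 3 the libraries with TSH lay above those without it. The TSH over Empty log2 values were 0.62 ± 0.12 for H2-DMa, 0.51 ± 0.09 for H2-DMb1 and 0.77 ± 0.17 for H2-DMb2 (edgeR adjusted p 0.00475, 0.00293 and 0.00719).

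Neither H2-DO gene passed the test in any comparison. H2-Oa had only 33 to 146 counts per library and H2-Ob 26 to 81, which limits what can be seen. At 4 weeks H2-Oa had 1.04, 1.39 and 1.53 CPM in TSH-MMI, 1.92, 1.22 and 1.32 CPM in TSH, 0.887, 0.993 and 0.878 CPM in Empty-MMI, and 1.56, 1.31 and 1.07 CPM in Empty thyroids. TSH and Empty overlapped, and the difference was 0.17 ± 0.26 (edgeR adjusted p 0.710). H2-Ob had 1.69, 2.15 and 1.57 CPM in TSH-MMI, 1.83, 1.67 and 1.65 CPM in TSH, 0.699, 1.06 and 1.19 CPM in Empty-MMI, and 1.38, 0.922 and 1.24 CPM in Empty thyroids. Every H2-Ob library with TSH lay above every one without it, yet the TSH over Empty value of 0.54 ± 0.25 did not pass the test (edgeR adjusted p 0.174). At 1 week H2-Oa had 1.64, 1.87 and 2.24 CPM in TSH-MMI, 1.63, 1.37 and 1.96 CPM in TSH, and 1.19, 1.70 and 3.86 CPM in Empty thyroids, and H2-Ob 1.497, 1.48 and 1.79 CPM, 1.11, 1.22 and 1.41 CPM, and 1.08, 2.09 and 1.56 CPM in the same groups. Both overlapped between TSH and Empty. Their 1 week TSH over Empty values were -0.44 ± 0.37 for H2-Oa and -0.33 ± 0.27 for H2-Ob (edgeR adjusted p 0.427 and 0.414), and that of H2-Oa was 0.19 without Empty replicate 3.

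Ciita, the co-activator (GRCm38 chromosome 16, 10480059 to 10528418), had the largest log2 fold change of the 10 genes at 4 weeks in TSH over Empty and in TSH-MMI over Empty. It had 12.3, 10.5 and 8.63 CPM in TSH-MMI, 10.7, 10.9 and 11.2 CPM in TSH, 5.86, 4.84 and 6.75 CPM in Empty-MMI, and 5.04, 5.12 and 6.53 CPM in Empty thyroids. The rise was 0.98 ± 0.16 in TSH (edgeR adjusted p 0.00162) and 0.91 ± 0.16 in TSH-MMI (edgeR adjusted p 0.00212), both without overlap. At 1 week Ciita had 7.53, 7.71 and 9.08 CPM in TSH-MMI, 10.4, 8.49 and 9.41 CPM in TSH, and 4.98, 4.67 and 11.5 CPM in Empty thyroids. The Empty libraries bracketed all others: replicate 3 was the highest of the 9 and replicates 1 and 2 the lowest. With all libraries the TSH over Empty value was 0.42 ± 0.31 (edgeR adjusted p 0.371). Without Empty replicate 3 it was 0.96 ± 0.15 (edgeR adjusted p 0.000979), and for TSH-MMI over Empty 0.74 ± 0.15 (adjusted p 0.00563). The call at 1 week thus rests on that library.

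Counted over the list, 3 of 10 genes rose at 1 week in TSH (H2-DMa, H2-DMb1 and Cd74), where 14.8% of all 16956 genes rose. In TSH-MMI 2 of 10 rose (H2-DMb1 and Cd74), where 13.6% of all genes did. Groups did not overlap in 3 of 10 genes in TSH and 3 of 10 in TSH-MMI (H2-DMa, H2-DMb1 and Cd74 in both), against 22.1% and 21.4% of all genes, so these shares were near the background. The medians over the 10 were 0.13 in TSH and 0.11 in TSH-MMI. Without Empty replicate 3 the counts were 5 in TSH, with H2-Ab1 and Ciita added, and 3 in TSH-MMI (H2-DMa, Cd74 and Ciita), where H2-DMb1 no longer passed (edgeR adjusted p 0.109). Without TSH-MMI replicate 2 as well, Cd74 and Ciita passed in TSH-MMI (adjusted p 0.0314 and 0.00996). Without TSH-MMI replicate 2, and also without Empty replicate 1, the TSH-MMI count was 0, and without any 1 of Empty replicate 2, TSH-MMI replicate 1 and TSH-MMI replicate 3 it was 1. All 3 TSH calls stayed with each of the 6 libraries left out in turn. The 2 weeks thus differed in which genes passed the test, and the difference itself was tested next.

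**Figure D3:**
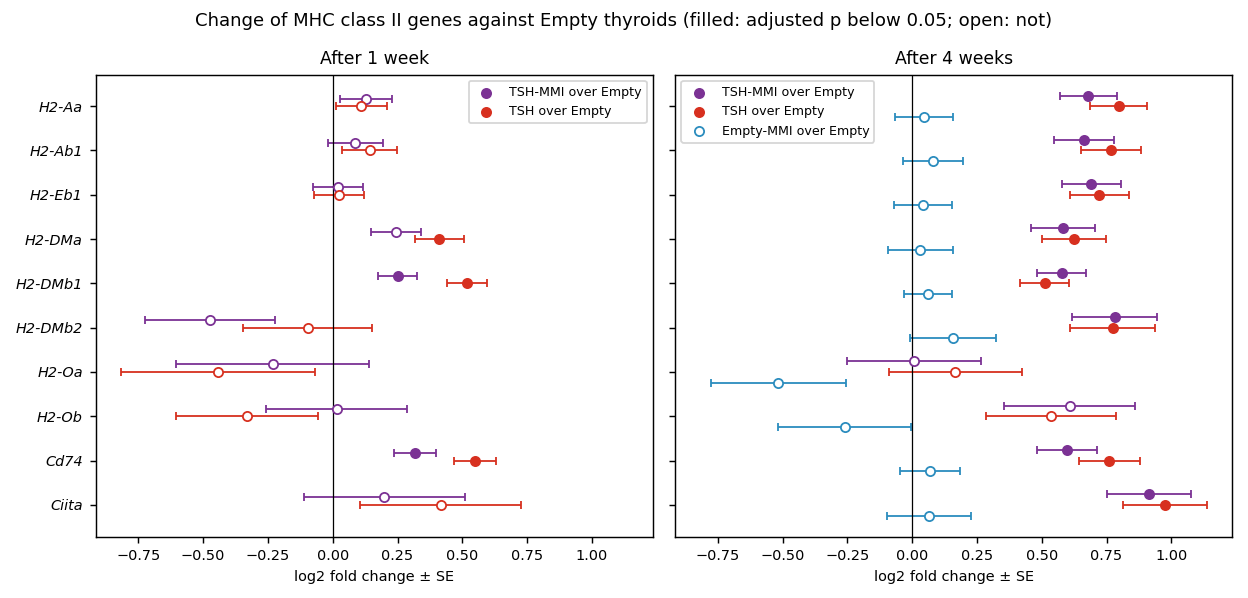
Log2 fold change (± SE) of each gene against Empty thyroids after 1 week (left) and 4 weeks (right), filled where the edgeR adjusted p was below 0.05. At 1 week the filled points are H2-DMa, H2-DMb1 and Cd74 in TSH and H2-DMb1 and Cd74 in TSH-MMI, while at 4 weeks 8 genes are filled in TSH and in TSH-MMI and none in Empty-MMI.

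The test of a difference in TSH effect between 4 weeks and 1 week called H2-Aa and H2-Eb1, and neither call held under every setting. In a fit of all 21 libraries, the TSH effect on H2-Aa was larger at 4 weeks by 0.69 ± 0.15 on the log2 scale (edgeR adjusted p 0.0282) and that on H2-Eb1 by 0.70 ± 0.15 (adjusted p 0.0264). Only 0.418% of all 17715 genes were called in that direction. H2-Ab1 had 0.63 ± 0.16 and did not pass (adjusted p 0.0601). Cd74 had 0.21 ± 0.14, H2-DMa 0.22 ± 0.16 and H2-DMb1 -0.01 ± 0.12, with edgeR adjusted p values of 0.490, 0.555 and 0.991. Ciita had 0.56 ± 0.34 with all libraries and 0.03 ± 0.23 without the 2 libraries with thymocyte transcripts (edgeR adjusted p 0.451 and 0.979). Without those 2 libraries H2-Eb1 passed (0.66 ± 0.16, adjusted p 0.0461) and H2-Aa did not (0.61 ± 0.16, adjusted p 0.0589). Neither gene passed when the fit held just the 4 groups of this contrast (adjusted p 0.088 for H2-Aa and 0.0793 for H2-Eb1), by limma (0.075 and 0.0733), or without any 1 of TSH replicate 2 of 1 week (0.0738 and 0.0688) and TSH replicates 1 (0.0801 and 0.0729) and 2 (0.0608 and 0.0534) of 4 weeks. H2-Aa was also lost without Empty replicate 3 of 4 weeks (0.0506), and H2-Eb1 without TSH replicate 3 of 1 week (0.0582). Week and deposited table coincide, so a difference between the tables cannot be told apart from time, although each TSH effect is taken within its own week. For TSH-MMI the same difference gave 0 calls among the 10 genes by edgeR, with 6 at an unadjusted p below 0.05, and 3 by DESeq2 (H2-Aa, H2-Eb1 and H2-DMb2). Of all genes, 0.0169% were called by edgeR.

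The balance between Cd74 and the I-A beta chain was also taken within each library, where it needs no scaling. At 1 week there were 4.97, 5.10 and 4.51 Cd74 counts per H2-Ab1 count in TSH-MMI thyroids, 4.95, 5.96 and 5.62 in TSH thyroids, and 4.29, 4.51 and 3.77 in Empty thyroids. Every TSH library lay above every Empty library. TSH-MMI libraries also lay above Empty, but only just, with a lowest ratio of 4.508 against a highest of 4.505 (exact two-sided permutation p 0.1). At 4 weeks the ratios were 4.10, 3.95 and 3.96 in TSH-MMI, 4.20, 4.01 and 4.29 in TSH, 4.35, 4.03 and 4.08 in Empty-MMI, and 4.17, 4.12 and 4.29 in Empty thyroids. TSH and Empty overlapped there, and every TSH-MMI library lay below every Empty library (exact two-sided permutation p 0.1). The mean ratio was 5.51 ± 0.51 in TSH and 4.19 ± 0.38 in Empty thyroids at 1 week (SD, n = 3 each), with an exact two-sided permutation p of 0.1, the smallest that 3 against 3 allows. At 4 weeks the means were 4.17 ± 0.14 in TSH and 4.19 ± 0.09 in Empty thyroids (exact permutation p 1). Over the 24 ratio tests made, none passed after adjustment, and the adjusted p was 0.4 both for TSH over Empty at 1 week and for TSH-MMI over Empty at 4 weeks.

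**Figure D4:**
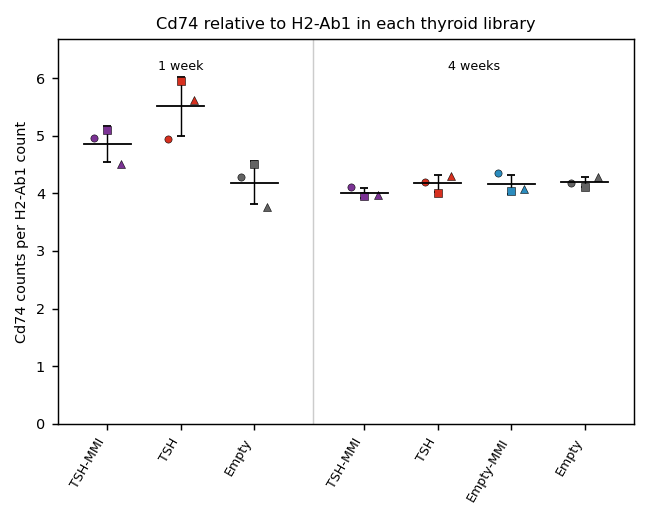
Cd74 counts per H2-Ab1 count in each library, with the group mean as a line and the SD as a bar (n = 3 libraries per group). TSH libraries of 1 week lie at 4.95 to 5.96 and all 4 groups of 4 weeks between 3.95 and 4.35.

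MMI by itself moved none of the 10 genes past the test. For Empty-MMI over Empty at 4 weeks, edgeR, DESeq2 and limma each called 0 of 10, and 0 had an unadjusted p below 0.05. In either direction edgeR called 1.64% of all genes, and the median over the 10 was 0.05. DESeq2 called 357 of 19162 genes higher and 415 lower, and limma 23 of 17355 higher and 266 lower. H2-Oa was the 1 gene of 10 without overlap, with Empty-MMI below Empty, as 9.56% of all genes were (unadjusted p 0.0687, edgeR adjusted p 0.387). For TSH-MMI over TSH at 4 weeks the count was 0 by each of the 3 tools, with 0 at an unadjusted p below 0.05. Log2 differences there ran from -0.16 to 0.07 with standard errors of 0.09 to 0.26, and edgeR called 0.0173% of all genes. DESeq2 called 40 of 14207 genes higher and 43 lower, and limma 3 of 17355 higher. At 1 week TSH-MMI over TSH gave 0 calls by edgeR, where 0.0177% of all genes were called. DESeq2, which gave an adjusted p for 6 of the 10 genes, and limma also called 0. Unadjusted p values were below 0.05 for H2-DMb1 and Cd74 (0.00418 and 0.0145), and for both every TSH-MMI library lay below every TSH library. That held for 4 of the 10 genes (H2-DMa and H2-DMb2 too), against 8.32% of all genes, and the opposite for H2-Ob, against 8.18%.

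Among mice that all received MMI, class II transcripts were also higher with TSH. This comparison shares its TSH-MMI libraries with TSH-MMI over Empty, so it is not an independent repeat. For TSH-MMI over Empty-MMI 8 of 10 rose, once more all but H2-Oa and H2-Ob, where 3.03% of all genes did, and in all 10 genes the groups did not overlap, which held for 12.2% of all genes. The log2 values of the 8 ran from 0.52 ± 0.09 for H2-DMb1 to 0.85 ± 0.16 for Ciita. H2-Ob at 0.87 ± 0.26 and H2-Oa at 0.52 ± 0.26 did not pass (edgeR adjusted p 0.0771 and 0.328). The count was 4 without Empty-MMI replicate 1 and 5 without any 1 of Empty-MMI replicates 2 and 3 and TSH-MMI replicates 1 and 2. H2-Aa, H2-Eb1 and H2-DMb1 kept their call under every setting tried. A test of whether the TSH effect differed with MMI called 0 of 10 genes by edgeR, DESeq2 and limma. By edgeR 0 of the 10 had an unadjusted p below 0.05, and 0% of all genes were called. DESeq2 called 64 of 14207 genes higher and 99 lower, and limma 3 of 17355 higher.

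Genes of the wider class II route were also measured. Their 1 week tests kept the libraries with thymocyte transcripts. Of 16 genes of the peptide loading compartment, 12 rose in TSH at 1 week and 5 rose and 1 fell at 4 weeks. Of all genes, 14.8% rose at 1 week, and 8.52% rose and 5.61% fell at 4 weeks. The medians of the 16 genes were 0.43 and 0.23, against -0.0047 and -0.03 over all genes. Ctss, the cathepsin that degrades the invariant chain, rose by 1.37 ± 0.10 at 1 week and 1.21 ± 0.15 at 4 weeks (edgeR adjusted p 6.6e-06 and 0.00024). Ctsl, a related cathepsin that also acts in thyroglobulin breakdown, rose by 1.23 ± 0.11 and 0.77 ± 0.10 (adjusted p 3.29e-05 and 0.000228). In TSH-MMI over Empty, 11 of the 16 rose at 1 week, and 7 rose and 1 fell at 4 weeks. There 13.6% of all genes rose at 1 week, and 8.77% rose and 5.97% fell at 4 weeks.

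Of 23 tested genes of the interferon gamma route to Ciita, 7 rose and 1 fell in TSH at 1 week, and 10 rose at 4 weeks. Of all genes, 14.8% rose and 9.34% fell at 1 week, and 8.52% rose at 4 weeks. In TSH-MMI over Empty 2 of the 23 rose at 1 week and 5 at 4 weeks, against 13.6% and 8.77% of all genes. The 1 week share in TSH-MMI was thus not above the background. At 4 weeks in TSH the smallest p values belonged to the chemokine Cxcl10 (1.82 ± 0.21, edgeR adjusted p 0.000144) and the guanylate-binding proteins Gbp3 (1.13 ± 0.14, adjusted p 0.000212) and Gbp2 (0.90 ± 0.13, adjusted p 0.000596). At 1 week they belonged to Gbp2 (0.54 ± 0.10, adjusted p 0.00233), the receptor chain Ifngr2 (0.39 ± 0.08, adjusted p 0.003) and the transcription factor Irf1 (0.66 ± 0.12, adjusted p 0.00312). The gene that fell at 1 week was Socs1 (-1.23 ± 0.26, edgeR adjusted p 0.00656). Cxcl10 was the 1 gene of this list called between TSH-MMI and TSH at 4 weeks, where it fell by 1.51 ± 0.20 (adjusted p 0.0308). Ifng itself was too low to be tested.

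Among 16 genes of class II transcription other than Ciita, 3 rose and 1 fell in TSH at 1 week and 2 rose at 4 weeks. Of all genes, 14.8% rose and 9.34% fell at 1 week and 8.52% rose at 4 weeks, so these shares were near the background. Spi1, the myeloid factor PU.1, was among the genes that rose at both times (0.81 ± 0.15 and 0.90 ± 0.15, edgeR adjusted p 0.0029 and 0.00145). The median of this list was 0.09 at 1 week and 0.13 at 4 weeks. Of 14 tested genes of class II turnover, costimulation and partners, 4 rose and 1 fell in TSH at 1 week, and 6 rose at 4 weeks. March1, a ubiquitin ligase that removes class II from the surface, rose at both times (1.18 ± 0.21 and 1.05 ± 0.26, edgeR adjusted p 0.0023 and 0.0168). Cd86, a costimulatory ligand, did too (0.85 ± 0.26 and 0.81 ± 0.17, adjusted p 0.0355 and 0.00577).

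Markers of class II-bearing cells were measured beside the members. At 1 week 13 of 14 macrophage markers rose in TSH and 13 of 14 in TSH-MMI, against 14.8% and 13.6% of all genes. The macrophage sum was 636 to 742 CPM in TSH-MMI, 734 to 802 CPM in TSH, and 328 to 388 CPM in Empty thyroids. At 4 weeks 12 of 14 rose in each, against 8.52% of all genes in TSH and 8.77% in TSH-MMI. The sums were then 532 to 679 CPM in TSH-MMI and 584 to 671 CPM in TSH. They were 317 to 348 CPM in Empty-MMI and 284 to 354 CPM in Empty thyroids. No macrophage marker was at 0 in any group, and the sums with TSH did not overlap those without it in either week.

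Dendritic cell markers summed to 64.5 to 69.6 CPM in TSH-MMI, 74.6 to 82.7 CPM in TSH, and 67.6 to 86.7 CPM in Empty thyroids at 1 week. The 86.7 CPM was Empty replicate 3, with thymocyte transcripts. Empty replicates 1 and 2 held 68.2 and 67.6 CPM, below every TSH library. At 4 weeks the dendritic cell markers summed to 65.7 to 72.7 CPM in TSH-MMI and 70.6 to 82.3 CPM in TSH. The sums were 58.1 to 63.8 CPM in Empty-MMI and 55.3 to 57.7 CPM in Empty thyroids. Of 13 tested, 2 rose and 1 fell in TSH at 1 week, and 3 rose at 4 weeks (Itgax, Wdfy4 and Fscn1). Of all genes, 14.8% rose and 9.34% fell in TSH at 1 week, and 8.52% rose and 5.61% fell at 4 weeks. The 1 week share of dendritic cell markers that rose was near that background. Itgax, the integrin CD11c of dendritic cells and some macrophages, had a TSH effect larger at 4 weeks by 0.95 ± 0.22 (edgeR adjusted p 0.0332). That fit held all libraries, Empty replicate 3 of 1 week among them, and 0.418% of all genes were called in that direction. Cd207 was at 0 in the TSH and TSH-MMI libraries of 1 week. B cell markers summed to 25.7 to 27.5 CPM in TSH and 18.2 to 25.8 CPM in Empty thyroids at 4 weeks, where 2 of 8 tested rose and 1 fell. At 1 week 0 of these 8 rose and 1 fell in TSH by edgeR, with 3 at an unadjusted p below 0.05. Cr2 was at 0 in those TSH and Empty libraries. Of 5 pan-leukocyte genes, 2 rose in TSH at 1 week and 5 at 4 weeks. Their 1 week sums were 155 to 181 CPM in TSH, and 88.5, 87.5 and 197 CPM in Empty replicates 1, 2 and 3. Empty replicate 3 is the library with most thymocyte transcripts, and the 1 week count includes it. The part of these cell types in the class II result was not tested.

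**Figure D5:**
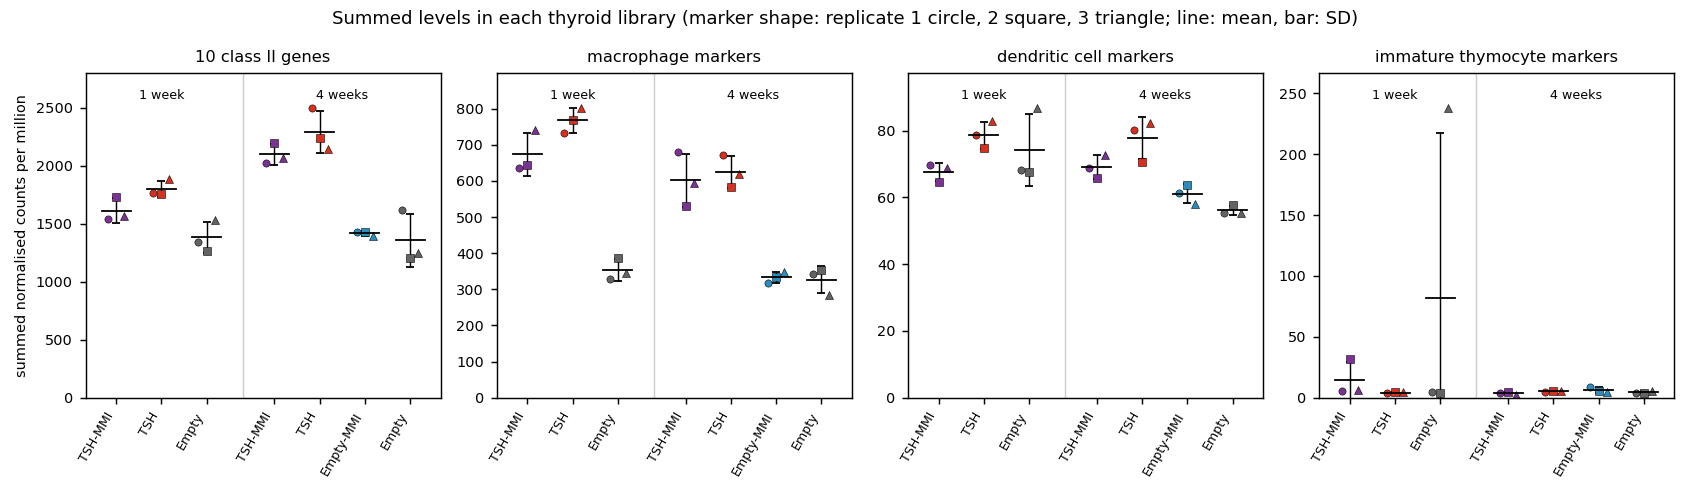
Summed normalised CPM of the 10 class II genes and of macrophage, dendritic cell and immature thymocyte markers in each library, with the group mean as a line and the SD as a bar (n = 3 libraries per group). Macrophage sums of TSH libraries lie above those of Empty libraries in both weeks, and the thymocyte panel shows Empty replicate 3 of 1 week at 238 CPM.

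Markers of neighbouring tissue varied widely between libraries, and edgeR called 0 of 8 skeletal muscle and 0 of 3 parathyroid markers in every comparison. By unadjusted edgeR p below 0.05, 8 of 8 muscle markers differed in Empty-MMI over Empty at 4 weeks (median log2 value -5.73). In TSH-MMI over Empty at 4 weeks 7 did (median -5.27), and in TSH over Empty 1 did (median -3.47). Skeletal muscle markers summed to 5.09 to 1149 CPM in TSH and 3043 to 10346 CPM in Empty thyroids at 4 weeks. In TSH-MMI and Empty-MMI they summed to 10.1 to 439 and 65.3 to 246 CPM, which overlap. Every Empty library of 4 weeks thus lay above every other library of that week. Parathyroid markers summed to 20.0 to 7587 CPM in TSH and 219 to 18352 CPM in Empty thyroids at 4 weeks, and 3917 to 6572 CPM in TSH-MMI against 8436 to 17435 CPM in Empty-MMI. Their part was not tested. Endothelial markers rose in 6 of 6 genes in TSH at both times, against 14.8% of all genes at 1 week and 8.52% at 4 weeks.

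Across the 21 libraries the I-A chain genes and H2-Eb1 were most alike. H2-Aa had a Pearson r of 0.981 with H2-Ab1 in log2 CPM, and H2-Eb1 0.955, the highest values among 14133 genes. Within groups, after each group mean was removed, these values were 0.885 and 0.774. Cd74 had rank 5 at 0.856 (0.819 within groups). H2-DMa had 0.774, Ciita 0.729, H2-DMb1 0.586, H2-DMb2 0.548, H2-Ob 0.520 and H2-Oa 0.121. Within groups H2-DMb1 had -0.142 and H2-Oa 0.713. The 8 genes outside the list most like H2-Ab1 were S100a6, Lpcat1, AW112010, Syt11, Cxcl16, Tmsb10, Efna1 and Zfas1, with r of 0.863 to 0.827. Their within-group r ran from 0.185 for Cxcl16 to 0.647 for Tmsb10. The points share depth, scaling and treatment group, and the values are descriptions.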

How the data were processed

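Per the labels' protocols, stranded mRNA libraries were made from total RNA of thyroid glands. Tools named in the submitters' processing notes are the aligner HISAT2 2.1.0, the assembler StringTie 2.1.3b, Trimmomatic 0.38, FastQC 0.11.7 and build mm10. How reads were counted, with which annotation and with or without strand was not given in the sources used here. For each week the authors deposited 1 table with whole-number read counts and FPKM for every gene, per the file headers.

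Counts were tested with edgeR 4.0.16 (TMM, filterByExpr, robust quasi-likelihood, R 4.3.3) on the 9 libraries of 1 week, the 12 of 4 weeks, or all 21 for differences between weeks, with Benjamini-Hochberg adjustment over all genes tested and a threshold of 0.05. DESeq2 1.42.0 and limma 3.58.1 on log2(FPKM + 1), which understates low genes, were alternatives, beside RLE scaling, no filter, fewer groups, a replicate block and left-out libraries. The code was checked on simulated counts. Ratios were compared with exact permutation tests (SciPy 1.17.1). The members and gene lists were chosen with earlier results of these data known. All 10 members are named, up to 3 called genes per other list, and the 8 genes most like H2-Ab1 with a mean of at least 1 CPM. A few genes were named after their values were seen: March1, Cd86, Spi1, Itgax, Socs1 and those at 0. Libraries held 32244842 to 51886245 counts, and H2-Oa and H2-Ob, with the fewest counts of the members, carry the largest relative counting error.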

Additional observations from a re-analysis of the deposited data

Results flagged for a closer look

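The effect of TSH on H2-Aa was larger at 4 weeks than at 1 week by 0.69 on the log2 scale, a difference that passed the edgeR test of the difference itself (adjusted p 0.0282). The effect on H2-Eb1 was larger at 4 weeks by 0.70 (edgeR adjusted p 0.0264). Both calls were lost by limma, with only the compared groups fitted and with some single libraries left out, with adjusted p of up to 0.088 for H2-Aa and 0.0793 for H2-Eb1. Without the 2 libraries with thymocyte transcripts H2-Aa was lost (adjusted p 0.0589). Groups of 3 libraries are too small for a test of single outlying libraries.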

How the results depend on the processing

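Of 31 calls of class II genes over all comparisons, 21 held under every setting tried, among them all 16 calls of TSH and TSH-MMI over Empty at 4 weeks. Counts moved as follows. Without the 2 libraries with thymocyte transcripts, the TSH count at 1 week was 5, and that of the TSH difference between weeks was 1. With only the compared groups fitted, TSH-MMI at 1 week had 1 call and the TSH difference between weeks 0, which was also 0 by limma. DESeq2 gave 3 calls for the TSH-MMI difference between weeks. With 1 library left out in turn, counts ran from 3 to 5 for TSH and 0 to 3 for TSH-MMI over Empty at 1 week, 4 to 8 for TSH-MMI over Empty-MMI, 0 to 3 for the TSH difference between weeks and 0 to 1 for that of TSH-MMI. The cause was not tested.

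Signs turned only for genes that were not called. For TSH over Empty at 1 week, H2-DMb2 was 0.017 by limma and 0.33 without the 2 libraries, and H2-Oa 0.20. For TSH-MMI at 1 week, H2-Oa was 0.43 without them. For the TSH difference between weeks, H2-DMb1 was 0.0084 by DESeq2, 0.013 with RLE, 0.0045 without Tg, mitochondrial, 18S and muscle genes and 0.048 without the 2 libraries, and H2-Oa -0.015 without them. With libraries left out, TSH over Empty at 1 week ran from -0.039 to 0.11 for H2-Eb1, -0.28 to 0.32 for H2-DMb2 and -0.76 to 0.19 for H2-Oa. TSH-MMI over Empty at 1 week ran from -0.019 to 0.23 for H2-Ab1, -0.057 to 0.086 for H2-Eb1, -0.54 to 0.41 for H2-Oa, -0.21 to 0.27 for H2-Ob and -0.025 to 0.74 for Ciita. At 4 weeks H2-Oa ran from -0.048 to 0.31 in TSH and -0.12 to 0.16 in TSH-MMI, and in the TSH difference between weeks H2-DMb1 from -0.061 to 0.067 and H2-Oa from -0.016 to 0.94.

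Replicate numbers gave no sign of pairing, with same-number correlations of -0.245 to 0.266 at 1 week and -0.251 to 0.257 at 4 weeks. Between different numbers they ran from -0.37 to 0.356 and from -0.333 to 0.283. With 3 libraries per group such values cannot exclude a pairing, which the labels leave unstated. With the replicate block, the counts of TSH and TSH-MMI over Empty stayed at 3, 2, 8 and 8, and 7 of 8 stayed for TSH-MMI over Empty-MMI, where H2-DMb2 had an adjusted p of 0.0588. H2-DMa at 1 week in TSH had 0.96 ± 0.40 by limma on FPKM (adjusted p 0.118). H2-Oa and H2-Ob, with at most 146 counts, are limited by depth.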

Other observations

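H2-Eb2, a further beta chain gene of the locus, had 102 counts in Empty replicate 3 of 1 week and 0 to 14 counts in the other 20 libraries. H2-Ea-ps had 0 counts in all 21 libraries, which allows up to 0.0578 to 0.0930 unscaled CPM, depending on the library (3 counts of its total, counting error only). The C57BL/6 strain is known to lack a working I-E alpha chain gene, so the H2-Eb1 transcript was measured without its partner. Ciita counts per 100 H2-Ab1 counts ran from 3.71 to 4.49 in TSH-MMI, 4.39 to 4.77 in TSH and 2.75 to 5.13 in Empty thyroids at 1 week, and from 3.14 to 3.91 in TSH and 2.27 to 3.99 in Empty thyroids at 4 weeks, with overlap in each pair.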
